A study of Mus musculus with 16 samples.

Results

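Ion and water transport genes were followed in the colon of pups delivered by C-section (CSD) or vaginally (VD). Most belong to the colonocyte, the absorptive cell of the colon surface, and some serve chloride secretion by crypt cells. The 10 genes were Slc26a3, Slc9a3, Car1, Car4, Aqp8, Scnn1a, Scnn1b, Scnn1g, Cftr and Slc12a2. They were found by their gene name in the array files, and all 10 were among the 36711 genes measured after removal of the dimmest probes. Colon RNA was taken at weaning (3 weeks of age) from 16 RjOrl:SWISS mice, an outbred stock, and each pup was measured on 1 Agilent array. Stock and age are those the study gives for its conventional pups followed from delivery. The sample labels give neither, and their protocol text speaks of both conventional and ex-germ-free animals without saying which these were. The 8 CSD pups (4 females and 4 males) were taken by hysterectomy and fostered by dams that had recently delivered vaginally. They came from 2 biological mothers, named 3 and 4, with 4 pups each. The 8 VD pups (2 females and 6 males) were raised after litters had been exchanged between dams, and came from mother 5 (5 pups) and mother 6 (3 male pups). No litter held both delivery modes, so that delivery mode and litter cannot be told apart beyond the comparison of 2 litters with 2. The segment of colon taken is not given in the sources used here. Between 58.7% and 64.9% of an array's noncontrol spots were marked well above background, and 0 spots were saturated.

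The colon surface recovers salt and water from its contents. In the textbook account, apical Na+/H+ and Cl-/HCO3- exchangers take up sodium and chloride together, carbonic anhydrases supply the protons and bicarbonate they trade, the epithelial sodium channel takes up sodium in the distal colon under aldosterone, and water follows. Crypt cells secrete chloride by the opposite route, with entry through a basolateral cotransporter and exit through an apical chloride channel.

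The arrays read each gene through probes of 60 bases. Shown here are 3 probes, 1 for each of the apical exchangers and 1 for Car4, to show which stretches of these genes were read. The Slc9a3 probe shown is the dimmer of 2, and the difference given below for that gene came mostly from the other, A_55_P2362635. They are given 5′ to 3′ in lower case, as in the array files, with mm9 coordinates. The Slc26a3 probe A_55_P2742406 starts at base 584 of its transcript and lies at chr12:32133697-32133992. The Slc9a3 probe A_52_P82701 starts at base 1730 and lies at chr13:74300566-74301172. Both span more genome than their 60 bases (296 and 607 bases), so each crosses an exon junction. The Car4 probe A_55_P2087182 starts at base 470 and lies at chr11:84777667-84777726. Each of the 3 has 2 reading frames without a stop codon, and the bounds of the coding sequence were not used here.
Slc26a3: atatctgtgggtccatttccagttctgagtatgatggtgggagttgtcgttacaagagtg
Slc9a3: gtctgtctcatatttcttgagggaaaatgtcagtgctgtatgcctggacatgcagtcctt
Car4: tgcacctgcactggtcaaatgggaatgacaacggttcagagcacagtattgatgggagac

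None of the 10 genes passed the test between CSD and VD pups (limma with sex as a fixed and the mother as a random effect, Benjamini-Hochberg adjusted p under 0.05 over all genes). Among all 36711 genes, 460 passed (1.25%), of which 259 were higher in CSD (0.706%) and 201 lower (0.548%), so that 0 of 10 was close to the background. At an unadjusted p under 0.05 there were 3 of the 10 genes (Slc26a3, Slc9a3 and Scnn1a), against 14.5% of all genes. The fitted differences were above 0 for 7 of the 10 genes and below 0 for 3, the median log2 fold change (CSD minus VD) being 0.18 against 0.00290 for all genes. The CSD and VD pups overlapped in each of the 10 genes, and 0.493% of all genes with a value on every array had no overlap. In 5 of the 10 genes (Slc26a3, Slc9a3, Car1, Scnn1a and Slc12a2), the 2 litter means of CSD were both higher or both lower than the 2 litter means of VD, which also held for 42% of all genes.

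**Figure D1:**
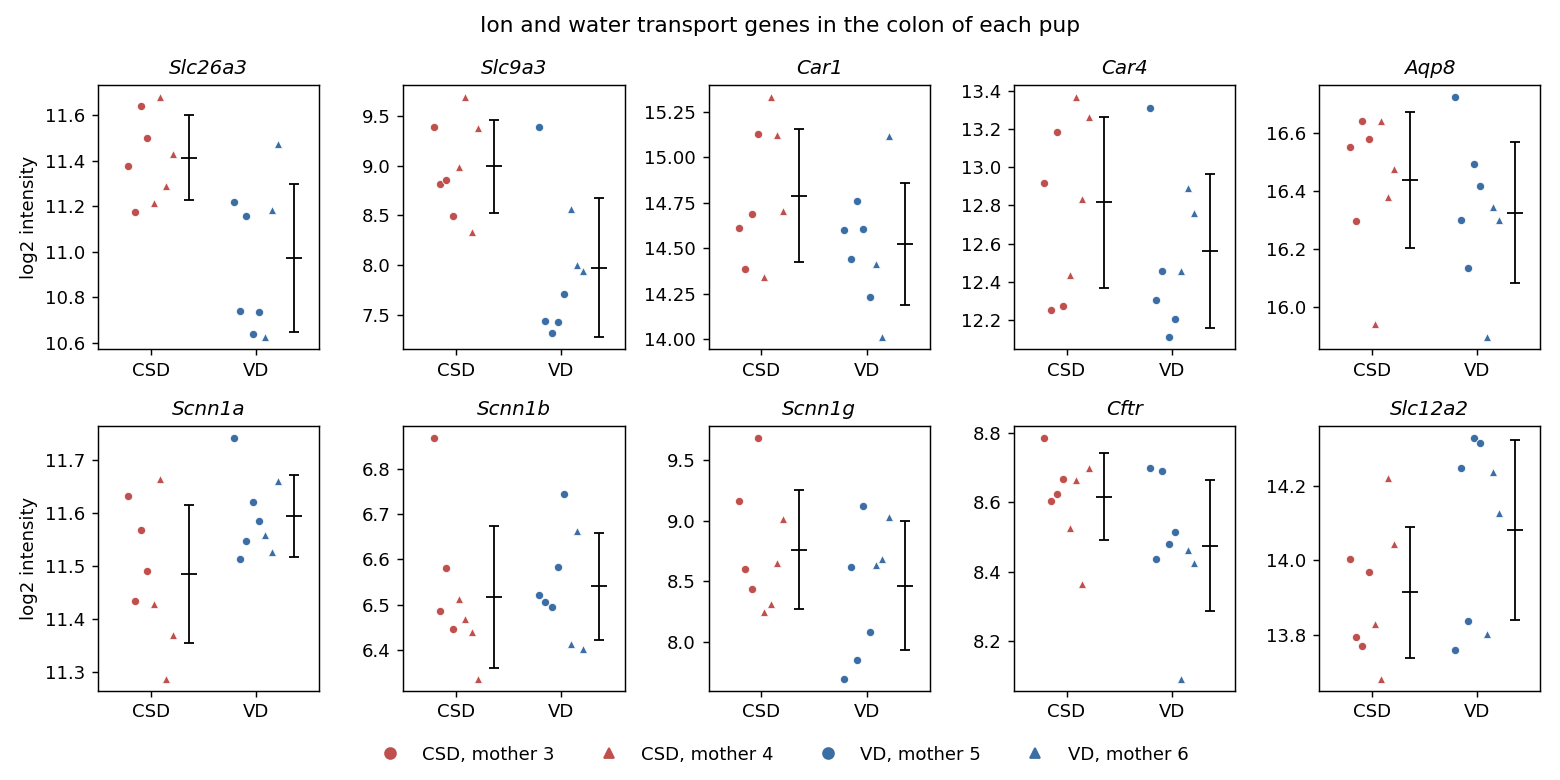
Log2 intensity of each transport gene (y axis, own scale per panel) in every CSD and VD pup (x axis), with circles and triangles for the 2 litters of a delivery mode and black bars for the mean ± SD of 8 pups. The pups of both groups overlap in every panel, and in the Slc9a3 panel 6 of 8 VD pups lie below all CSD pups.

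The apical exchangers gave the largest differences of the 10 genes. Slc9a3 encodes NHE3, the Na+/H+ exchanger of the brush border. Its log2 intensity in CSD pups ran from 8.33 to 9.69 with a median of 8.92, and in VD pups from 7.32 to 9.39 with a median of 7.83. Of the 8 VD pups, 6 lay below every CSD pup, and VD pup 4, a female of mother 5, lay at the level of the highest CSD pups. The fitted log2 fold change was 0.88 ± 0.27 (SE), or 1.85-fold, with a 95% interval of 0.31 to 1.46. Its limma p was 0.00507 and its adjusted p 0.126, and the exact permutation test (two-sided, on group means) gave p = 0.00684. The litter means were 8.89 and 9.10 for CSD mothers 3 and 4, and 7.86 and 8.17 for VD mothers 5 and 6. The difference was not alike on both array slides, each of which held 4 CSD and 4 VD pups. The fits within a single slide, here and below, had no term for the mother, so that litter mates counted as independent. On slide 1 the CSD pups lay between 8.86 and 9.39 and the VD pups between 7.32 and 8.005, with no overlap and a log2 fold change of 1.61 (adjusted p = 0.0932). On that slide 6.19% of all genes had no overlap between the 4 CSD and 4 VD pups. On slide 2 the CSD pups lay between 8.33 and 9.69 and the VD pups between 7.71 and 9.39, with a log2 fold change of 0.17 (adjusted p = 0.873). VD pups 4 and 6, the highest VD pups, were both on slide 2. With the slide as a term in the model the log2 fold change was 0.88 (adjusted p = 0.139), and without VD pup 4 it was 1.14 (adjusted p = 0.0539). The difference between the slides was not tested.

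The 2 probes of Slc9a3 differed in size but not in direction. Probe A_55_P2362635, at base 5057 of its transcript (chr13:74306830-74306889), averaged 11.45 ± 0.73 (SD, n = 8) over the CSD arrays and 9.72 ± 1.25 (SD, n = 8) over the VD arrays in log2 intensity. Its log2 fold change was 1.52 (limma adjusted p = 0.112), and it was well above background on all arrays. The probe printed above, A_52_P82701, read 6.54 ± 0.24 (SD, n = 8) over the CSD arrays and 6.23 ± 0.18 (SD, n = 8) over the VD arrays, with a fitted log2 fold change of 0.25 (limma adjusted p = 0.193). It was well above background in 5 CSD pups and 1 VD pup, so that its difference is that of a dim probe. Averaging both probes therefore gave a smaller difference than the brighter probe alone, which gave 1.51 when genes were read by their brightest probe. Of 56366 single probes on the arrays, 980 passed the test (1.74%), and none of the members' probes was among them.

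Slc26a3 encodes DRA, the apical Cl-/HCO3- exchanger whose loss causes congenital chloride diarrhoea. Its log2 intensity ran from 11.17 to 11.68 in CSD pups, with a median of 11.40, and from 10.62 to 11.47 in VD pups, with a median of 10.95. There were 3 CSD pups higher than every VD pup and 5 VD pups lower than every CSD pup. The log2 fold change was 0.45 ± 0.13 (SE), or 1.37-fold, with a 95% interval of 0.17 to 0.74, a limma p of 0.00395 and an adjusted p of 0.113. The exact permutation p was 0.00668. The CSD litter means, 11.42 and 11.40, both lay above the VD litter means of 10.90 and 11.09. The 3 probes gave log2 fold changes of 0.42, 0.43 and 0.50, and all were well above background on every array. Within slide 1 the log2 fold change of Slc26a3 was 0.55 (adjusted p = 0.335) and within slide 2 it was 0.36 (adjusted p = 0.624). Without VD pup 8, the highest VD pup, the adjusted p of Slc26a3 was 0.0466, with a log2 fold change of 0.52, in a fit in which 1.39% of all genes passed. Without the litter of mother 6, whose 3 pups leave the VD group with 1 litter, Slc26a3 (log2 fold change 0.52, adjusted p = 0.0140) and Slc9a3 (1.07, adjusted p = 0.0276) both passed. In that fit 2265 of the 36711 genes passed (6.17%), against 1.25% with all pups. Without the litter of mother 5 the log2 fold changes were smaller, 0.37 for Slc26a3 (limma adjusted p = 0.415) and 0.59 for Slc9a3 (limma adjusted p = 0.384), and without VD pup 5 that of Slc9a3 was 0.66 (adjusted p = 0.256).

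**Figure D2:**
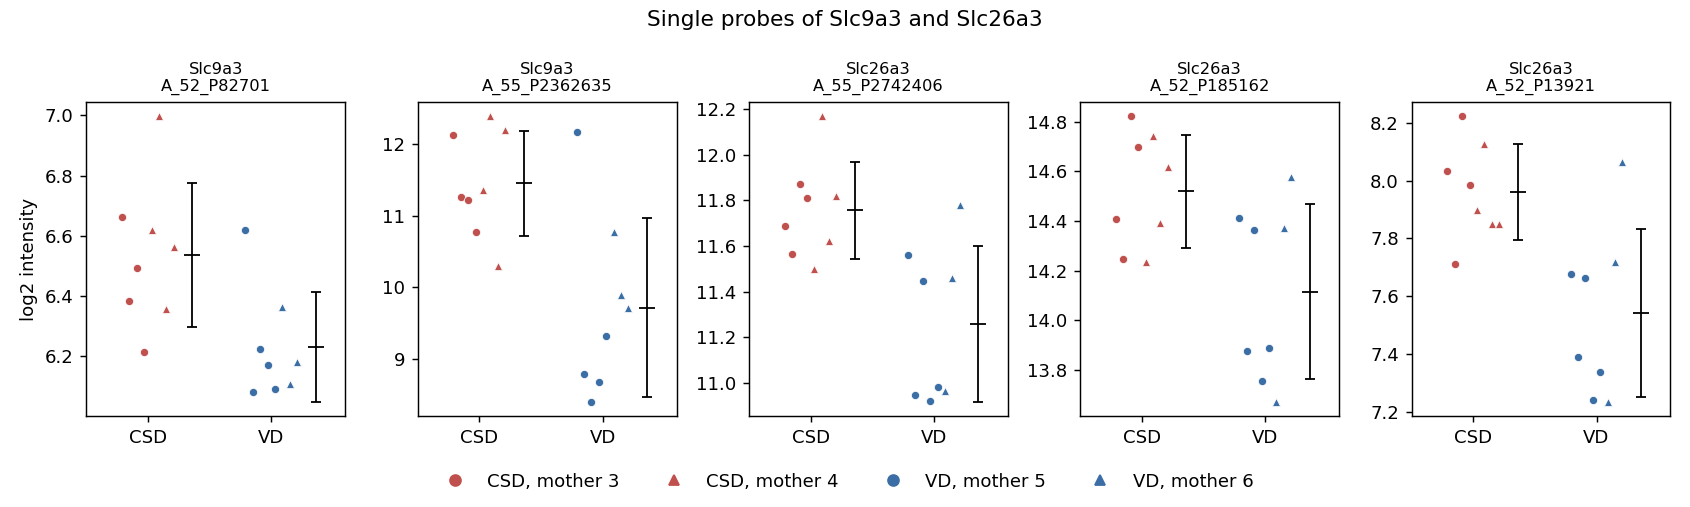
Log2 intensity (y axis, own scale per panel) of the 2 Slc9a3 probes and the 3 Slc26a3 probes in each CSD and VD pup (x axis), with circles and triangles for the 2 litters of a delivery mode and bars for the mean ± SD. VD pup 4 is the highest VD pup for both Slc9a3 probes, and the 3 Slc26a3 probes give like differences of 0.42 to 0.50.

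The carbonic anhydrases Car1 and Car4 interconvert carbon dioxide and bicarbonate, Car1 in the cytosol and Car4 anchored to the outer face of the apical membrane. Car1 ran from 14.34 to 15.33 (median 14.70) in CSD and from 14.01 to 15.11 (median 14.52) in VD pups on the log2 intensity scale. Car4 ran from 12.25 to 13.37 (median 12.88) in CSD and from 12.11 to 13.31 (median 12.46) in VD pups. For both genes the groups overlapped over most of their range. The log2 fold changes were 0.30 ± 0.17 (SE) for Car1 (95% interval -0.07 to 0.67, limma adjusted p = 0.457) and 0.24 ± 0.21 (SE) for Car4 (95% interval -0.22 to 0.69, limma adjusted p = 0.673). Both Car1 probes gave like differences, 0.29 and 0.32. Within the slides Car1 had log2 fold changes of 0.17 and 0.44. Within slide 1 Car4 had a log2 fold change of 0.61 and within slide 2 one of -0.13, and neither passed the test (adjusted p = 0.416 and 0.916). The difference of Car4 was 0.41 without VD pup 4, 0.14 without CSD pup 7 and 0.06 without the litter of mother 4.

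Aqp8 encodes the water channel of the colonic surface epithelium. It ran from 15.94 to 16.64 (median 16.52) in CSD pups and from 15.90 to 16.73 (median 16.32) in VD pups. Both the highest and the lowest of the 16 values were VD pups, pup 4 and pup 6. The log2 fold change was 0.11 ± 0.12 (SE, 95% interval -0.15 to 0.37, limma adjusted p = 0.744). It was 0.06 without VD pup 6 and 0.21 without VD pup 4, and with a litter left out it ranged from 0.0064 (without mother 3) to 0.34 (without mother 5).

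The epithelial sodium channel has an alpha, a beta and a gamma subunit, encoded by Scnn1a, Scnn1b and Scnn1g. Scnn1a ran from 11.29 to 11.66 (median 11.46) in CSD and from 11.51 to 11.74 (median 11.57) in VD pups. In all, 5 CSD pups lay below every VD pup and 1 VD pup, pup 4, above every CSD pup. The log2 fold change of Scnn1a was -0.13 ± 0.05 (SE, 95% interval -0.24 to -0.02), with a limma p of 0.0274 and an adjusted p of 0.261, and the exact permutation test gave p = 0.0600. Without the litter of mother 4 it was -0.07 (limma adjusted p = 0.627), and within slides 1 and 2 it was -0.06 and -0.20 (limma adjusted p = 0.824 and 0.407). Scnn1b lay near the background of the arrays, well above it in 6 of 8 CSD and 8 of 8 VD pups. It ran from 6.34 to 6.87 (median 6.48) in CSD and from 6.40 to 6.74 (median 6.51) in VD pups, and the fitted log2 fold change was -0.04 ± 0.07 (SE, limma adjusted p = 0.858). CSD pup 3, at 6.87, stood apart from the other CSD pups, the next of which was at 6.58. Scnn1g was the most variable subunit among pups. It ran from 8.25 to 9.68 (median 8.62) in CSD and from 7.70 to 9.12 (median 8.63) in VD pups, so that the medians were nearly the same. The fitted log2 fold change of Scnn1g was 0.39 ± 0.24 (SE, 95% interval -0.12 to 0.90, limma adjusted p = 0.493). It was 0.24 without CSD pup 9 and 0.16 without the litter of mother 5, and 0.14 and 0.65 within slides 1 and 2.

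Chloride secretion was represented by Cftr, the apical chloride channel, and Slc12a2, the basolateral Na+/K+/2Cl- cotransporter NKCC1. Cftr ran from 8.36 to 8.78 (median 8.64) in CSD and from 8.09 to 8.70 (median 8.47) in VD pups. The groups overlapped except for the 2 highest pups, both CSD, and the lowest, VD pup 6. The log2 fold change was 0.12 ± 0.08 (SE, 95% interval -0.05 to 0.29, limma adjusted p = 0.529), and with a litter left out it ranged from 0.05 (without mother 6) to 0.26 (without mother 5). Of the 3 Cftr probes, A_55_P2117511 (base 50 of its transcript) was well above background on 0 arrays and gave a log2 fold change of -0.03, while the probes A_66_P103142 and A_52_P452881 were above background on every array and gave 0.25 and 0.14. The gene value averages all 3, and the log2 fold change of Cftr was 0.20 (limma adjusted p = 0.434) when probes had to be well above background on at least 8 arrays and 0.26 (limma adjusted p = 0.521) with the brightest probe alone. Slc12a2 ran from 13.68 to 14.22 (median 13.90) in CSD and from 13.76 to 14.33 (median 14.18) in VD pups. In all, 4 VD pups lay above every CSD pup and 1 CSD pup below every VD pup. The log2 fold change of Slc12a2 was -0.13 ± 0.10 (SE, 95% interval -0.35 to 0.09, limma adjusted p = 0.615), with -0.06 without VD pup 5 and -0.05 without the litter of mother 5.

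**Figure D3:**
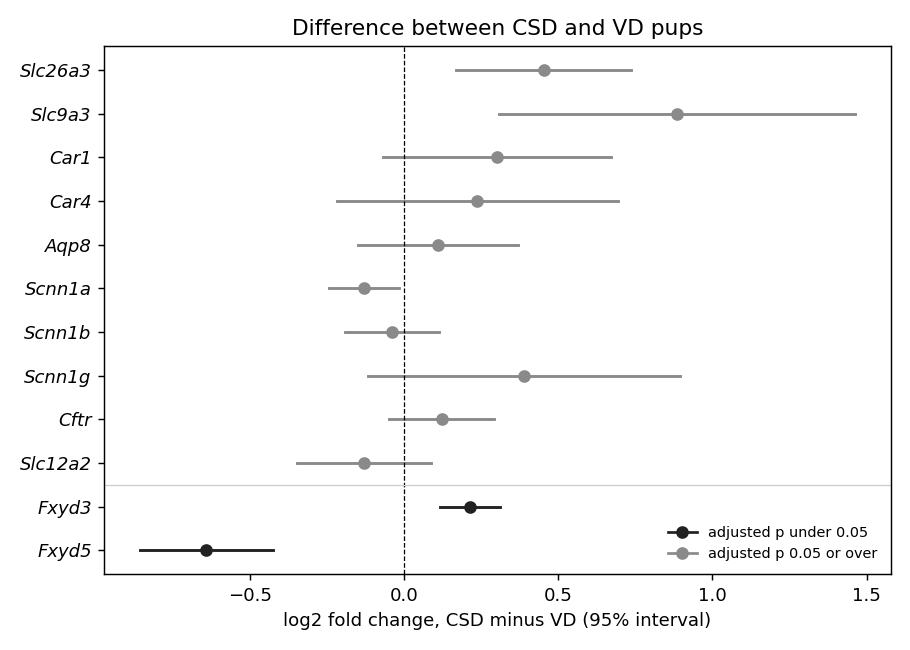
Log2 fold change (x axis, CSD minus VD) with its 95% interval from the limma fit, for the 10 transport genes and, under the line, Fxyd3 and Fxyd5. The intervals of Slc26a3, Slc9a3 and Scnn1a leave out 0, but only Fxyd3 and Fxyd5 passed after adjustment over all genes.

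VD pup 4, singled out after its values were seen, had the highest VD value in 5 of the 10 genes (Slc9a3, Car4, Aqp8, Scnn1a and Cftr) and the lowest VD value in 2 (Scnn1g and Slc12a2). The array of this pup had 64.9% of spots well above background. In bulk tissue, fewer cells of a type and less RNA per cell cannot be told apart, for this pup or for the groups.

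None of the 10 genes passed in the other comparisons. Between males and females 22 genes of the array passed (0.0599%). The smallest p among the members was that of Slc9a3, at a log2 difference (male minus female) of -0.52 ± 0.27 (SE, limma adjusted p = 0.809). In the test of whether the delivery difference differed between the sexes 1 gene passed (0.00272%), and the smallest member p was that of Aqp8, 0.105. Between the litters of CSD mothers 3 and 4, 32 genes passed (0.0872%), and the smallest member p was that of Scnn1b, 0.108. Between the litters of VD mothers 5 and 6, 321 genes passed (0.874%). The smallest member p there was that of Cftr, 0.0490 (limma adjusted p = 0.431), with a log2 difference of -0.22 (mother 6 minus mother 5). Slc9a3 had a log2 difference of 0.57 ± 0.38 (SE, limma adjusted p = 0.643) between the VD litters, beside 0.88 between the delivery modes. With 2 litters per delivery mode, an exact permutation of whole litters cannot go below p = 0.333.

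The levels of the transport genes were set against each other across the 16 pups. Of the 45 pairs of members, 0 passed after Benjamini-Hochberg adjustment over the pairs (permutation test, adjusted p under 0.05). Slc9a3 and Car4 had the highest Pearson r, 0.69 (Spearman rho 0.67, permutation p = 0.00385 and 0.00492, adjusted p = 0.102 and 0.0825), with r = 0.62 within CSD and 0.78 within VD pups. Without the 2 pups farthest from the median of Slc9a3, r was 0.63. Slc26a3 and Car4 followed at r = 0.68 (rho 0.65, permutation p = 0.00459 and 0.00833, adjusted p = 0.102 and 0.0937), and Aqp8 and Cftr at r = 0.63 (rho 0.53, permutation p = 0.00927 and 0.0359, adjusted p = 0.102 and 0.202). Without the 2 farthest pups these were 0.63 and 0.44. The lowest r, which did not pass either, was -0.65 for Slc9a3 and Slc12a2 (rho -0.71, permutation p = 0.00786 and 0.00276, adjusted p = 0.102 and 0.0825). This was -0.46 within CSD and -0.62 within VD pups, and -0.77 without the 2 farthest pups. The next lowest were Slc26a3 with Slc12a2 (r = -0.46, rho -0.43, permutation p = 0.0729 and 0.0956, adjusted p = 0.313 and 0.265, and r = -0.57 without the 2 farthest pups) and Car1 with Scnn1b (r = -0.45, rho -0.53, permutation p = 0.0764 and 0.0385, adjusted p = 0.313 and 0.202, and r = -0.39 without the 2 farthest pups). Pups of 1 litter are not independent, and the permutation does not take litters into account.

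The genes most like each member were sought among 15472 genes with a RefSeq symbol whose signal cleared the background on all arrays, by Pearson r over the 16 pups and with no test. For Slc9a3 these were Tmigd1, a membrane protein of the enterocyte brush border, and Slc13a2, the sodium-dicarboxylate cotransporter, both at r = 0.92. After centring each delivery mode on its own mean, r was still 0.86 and 0.85. Tmigd1 ran from 7.60 to 8.58 (median 8.35) in CSD and from 6.85 to 8.75 (median 6.96) in VD pups, with VD pup 4 highest of all. Slc13a2 ran from 13.14 to 13.998 (median 13.49) in CSD and from 12.63 to 13.82 (median 12.94) in VD pups, with 7 VD pups below every CSD pup and VD pup 4 highest of the VD pups. Neither gene passed the test (log2 fold change 0.75 and 0.45, limma adjusted p = 0.160 and 0.159).

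**Figure D4:**
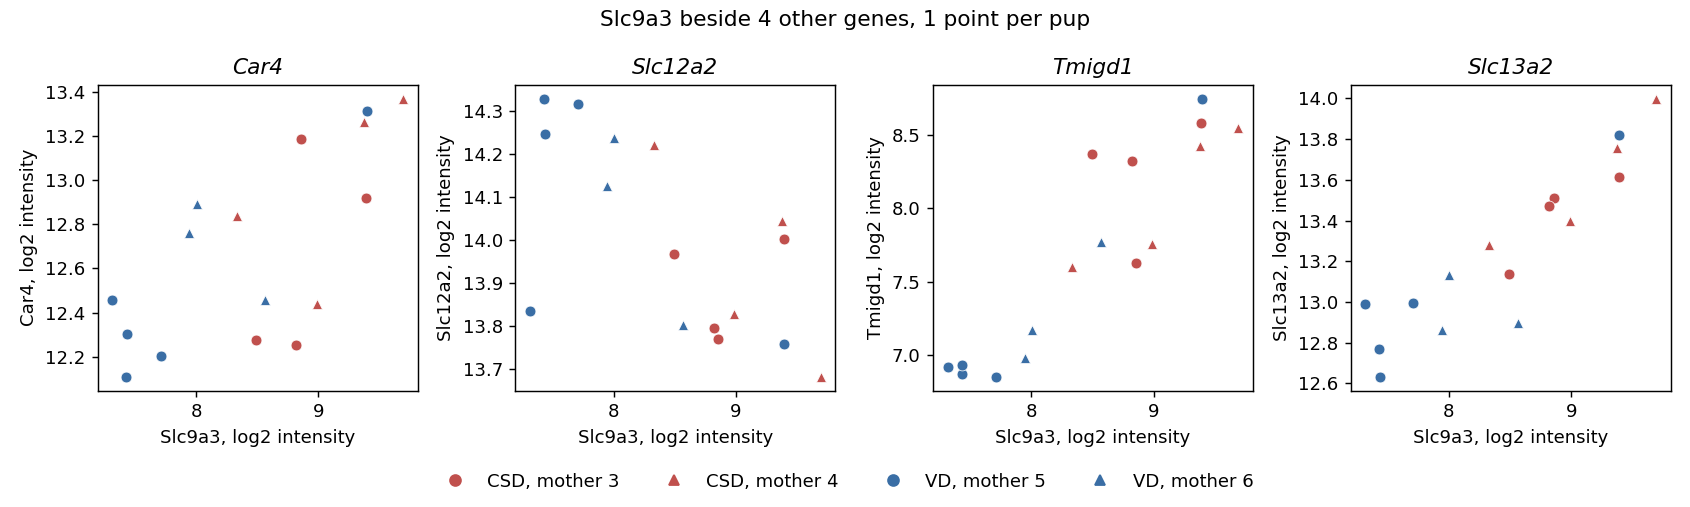
Log2 intensity of Car4, Slc12a2, Tmigd1 and Slc13a2 (y axes) against that of Slc9a3 (x axes), 1 point per pup, with colours for delivery mode and circles and triangles for the 2 litters of a mode. Tmigd1 and Slc13a2 go with Slc9a3 (r = 0.92 each) and Slc12a2 has r = -0.65, which did not pass the test over the pairs of members, while VD pup 4 sits among the CSD pups in the Car4, Slc12a2 and Slc13a2 panels and above them in that of Tmigd1.

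For the other members the closest genes were more varied. They were Bnip1 and Pan3 for Slc26a3 (r = 0.86 and 0.84), Pak6 and BC048403 for Car1 (0.80 and 0.78), Olfr656 and Ahcyl2 for Car4 (0.83 and 0.83), and Plscr1 and 4931406C07Rik for Aqp8 (0.77 and 0.75). Those of the sodium channel were Rccd1 and Atp7b for Scnn1a (0.84 and 0.84), Spry4 and Mtmr9 for Scnn1b (0.76 and 0.75), and Lipa and Slc38a9 for Scnn1g (0.81 and 0.79). Trip11 and Cdc73 were closest to Cftr (0.87 and 0.83), and Cdh6 and Ankrd42 to Slc12a2 (0.81 and 0.80). No gene was closest to more than 1 member.

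Other genes of salt, acid and water transport were read from 8 lists. Of the 104 genes listed, 101 were on the arrays, and 2 passed between CSD and VD pups (against 1.25% of all genes), both in the list of sodium and proton pumps. Of the 101, 59 were above and 42 below 0 in log2 fold change, with a median of 0.02 against 0.00290 for all genes, and 17 had an unadjusted p under 0.05, against 14.5% of all genes. Both counts were close to the background. The genes that passed both encode FXYD proteins, small membrane proteins that bind the Na+/K+-ATPase and set its activity. Which cells of the bulk tissue gave the signal of these 2 genes, epithelial or other, was not tested. Fxyd5, which also goes by dysadherin, ran from 9.88 to 10.57 (median 10.18) in CSD and from 10.64 to 11.19 (median 10.84) in VD pups, and all 8 CSD pups lay below every VD pup, a lack of overlap that 0.493% of all genes showed in either direction. It fell by 0.64 ± 0.10 on the log2 scale (SE, limma adjusted p = 0.00807), a level 1.56-fold higher in VD. Fxyd3 ran from 9.77 to 10.05 (median 9.87) in CSD and from 9.58 to 9.76 (median 9.67) in VD pups, and all 8 CSD pups were higher than every VD pup, again among that 0.493%. It rose by 0.21 ± 0.05 (SE, limma adjusted p = 0.0381), or 1.16-fold. Within the slides, Fxyd5 gave -0.59 and -0.69 (limma adjusted p = 0.153 and 0.247) and Fxyd3 gave 0.24 and 0.19 (0.362 and 0.424). Fxyd5 passed when any 1 pup was left out and Fxyd3 did not when CSD pups 1, 2, 3, 8 or 9 or VD pups 4, 5 or 6 were. Both calls were lost without the litter of mother 5 (adjusted p = 0.128 for Fxyd5 and 0.281 for Fxyd3) and without that of mother 3 (0.0519 and 0.0971), and that of Fxyd3 also without the litter of mother 4 (0.0539). Of the 101 genes, 1 passed with a normexp offset of 16 or 0, with either form of the scanner's processed intensity and in the deposited matrix. With litter means, in males only and with the pup number as a block, 0 passed.

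In the other 7 lists 0 genes passed. Among the 14 acid-base exchangers and scaffolds (9 above and 5 below 0), the smallest p were those of Slc9a3r2 (NHERF2, a scaffold of NHE3), at a log2 fold change of -0.21 (limma adjusted p = 0.108), and Slc4a7, a sodium bicarbonate cotransporter, at 0.16 (0.158). The 14 other carbonic anhydrases gave 6 above and 8 below 0, and the smallest p were those of Car5a (-0.09, adjusted p = 0.212), which was above background on 0 arrays, and Car15 (0.13, 0.390). Of the 11 other aquaporins 8 were above 0, led by Aqp4 (0.31, limma adjusted p = 0.362) and Aqp11 (0.20, 0.382). Only 7 of the 11 were above background on every array, and the 8 include genes above background on 0 arrays. Of the 17 regulators of the epithelial sodium channel 14 were above 0, with a median of 0.05. They were led by Tsc22d3 (GILZ, a target of steroid receptors) at 0.25 (limma adjusted p = 0.0880) and Spint1, an inhibitor of channel-cleaving proteases, at -0.22 (0.339). The 16 chloride and potassium channels and cotransporters were split evenly and led by the K-Cl cotransporter Slc12a4 (-0.18, limma adjusted p = 0.171). The short-chain fatty acid carriers, 4 of 7 above 0, were led by Slc16a3, a lactate carrier (-0.19, limma adjusted p = 0.160), and Slc5a8, a sodium-coupled carrier of the apical membrane (0.17, 0.360). Among 13 signals of absorption and secretion, 6 above 0, the smallest p were those of Adora2b (-0.14, limma adjusted p = 0.143), above background in 1 CSD and 7 VD pups, and Guca2a, which encodes guanylin, the gut ligand of guanylate cyclase C, at 0.66 (0.180).

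The labelled tissue was checked against 14 lists of cell type markers, 85 of whose 86 genes were on the arrays, and 0 of them passed between CSD and VD pups (against 1.25% of all genes). Of the 85, 33 were above and 52 below 0, the median log2 fold change being -0.05, and 11 had an unadjusted p under 0.05, against 14.5% of all genes. Summed over its 11 genes, of which Krt8 was the brightest on the arrays, the epithelial level was 19.47 ± 0.11 (SD, n = 8) for CSD pups and 19.50 ± 0.10 (SD, n = 8) for VD pups on the log2 scale. Mature colonocytes (7 genes, Lypd8 brightest) summed to 18.69 ± 0.13 (SD, n = 8) and 18.76 ± 0.11 (SD, n = 8), and the smallest p were those of Tmigd1, given above, and Ceacam1 (0.19, limma adjusted p = 0.374). Of these 7 genes 4 were above and 3 below 0, with a median log2 fold change of 0.02. They ran from -0.11 for Lypd8 to 0.75 for Tmigd1. The sums are carried by the brightest genes. With each gene weighted alike the mean levels of both lists went the other way, and that of the mature colonocytes takes in Tmigd1, its gene with the largest difference. The mean log2 level of the mature colonocyte genes was 14.09 ± 0.12 (SD, n = 8) for CSD and 13.94 ± 0.17 (SD, n = 8) for VD pups, and that of the epithelial genes 14.60 ± 0.12 (SD, n = 8) and 14.50 ± 0.096 (SD, n = 8). Of the epithelial genes 8 were above and 3 below 0, and those with the smallest p were Epcam (0.17, limma adjusted p = 0.257) and Cldn7 (0.14, 0.377). In goblet cells 5 of 6 genes were above 0, led by Spdef (0.29, limma adjusted p = 0.0526), a transcription factor of goblet cells, and Fcgbp (0.59, 0.0722), a protein of the mucus, with sums of 19.21 ± 0.11 (SD, n = 8) and 19.19 ± 0.11 (SD, n = 8) and mean log2 levels of 15.55 ± 0.14 (SD, n = 8) and 15.33 ± 0.12 (SD, n = 8).

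All 6 immune genes on the arrays were below 0 in log2 fold change, led by the B cell gene Cd79a (-0.48, limma adjusted p = 0.0993), and the summed level, with Lyz2 brightest, was 12.88 ± 0.37 (SD, n = 8) for CSD pups and 13.33 ± 0.22 (SD, n = 8) for VD pups. Of the smooth muscle genes, 6 of 7 were below 0 (Smtn -0.19, limma adjusted p = 0.275, and Acta2 -0.17, 0.419), with sums of 17.87 ± 0.21 (SD, n = 8) and 18.03 ± 0.17 (SD, n = 8) and Tagln brightest. All 3 red cell genes were below 0 (Hba-a1 -0.41, limma adjusted p = 0.360, and Hbb-b1 -0.42, 0.417), with sums of 14.89 ± 0.68 (SD, n = 8) and 15.50 ± 0.40 (SD, n = 8). The part of immune, muscle or blood cells in the differences of the transport genes was not tested.

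Fibroblast genes were 2 above and 4 below 0, with the smallest p for Dcn (-0.18, limma adjusted p = 0.363) and Pdgfra (-0.08, 0.608). They summed to 16.32 ± 0.20 (SD, n = 8) for CSD pups and 16.47 ± 0.11 (SD, n = 8) for VD pups. Endothelial genes were 3 of 3 below 0 (Cdh5 -0.18, limma adjusted p = 0.317, and Kdr -0.08, 0.406), with sums of 10.19 ± 0.13 (SD, n = 8) and 10.35 ± 0.10 (SD, n = 8). Fat genes were likewise below 0 (Lep -0.08, limma adjusted p = 0.328, and Adipoq -0.35, 0.858), with sums of 10.18 ± 0.99 (SD, n = 8) and 10.42 ± 0.70 (SD, n = 8), the widest spread among pups of the 14 lists. Crypt genes were split evenly (Ascl2 -0.08, limma adjusted p = 0.636, and Smoc2 0.05, 0.746). Endocrine and tuft cell genes were 2 of 7 above 0 (Gcg 0.13, limma adjusted p = 0.50, and Chga -0.13, 0.550). Neuronal and glial genes were 5 of 7 above 0 (Sox10 -0.16, limma adjusted p = 0.381, and Uchl1 -0.22, 0.474).

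The markers of gut position were mixed for the small intestine. Of its 7 genes, Sis, Lct and Apoa4 were above background on 0 of 16 arrays, Treh on 2 CSD and 2 VD arrays and Alpi on 3 and 4. Fabp6 and Slc10a2, bile acid genes of the ileum, were above background on all 16 arrays, Fabp6 at a log2 intensity of 10.01 ± 0.52 (SD, n = 8) for CSD pups and 10.13 ± 0.38 (SD, n = 8) for VD pups, and Slc10a2 at 9.16 ± 0.44 (SD, n = 8) and 9.15 ± 0.55 (SD, n = 8). The list's smallest p were those of Apoa4 (-0.05, limma adjusted p = 0.605) and Treh (-0.08, 0.627). All 6 posterior Hox genes, transcription factors of the hindgut, were above background on every array. Hoxa13 was 0.39 higher in CSD on the log2 scale (limma adjusted p = 0.0902) while the other 5 were below 0, among them Hoxb13, the brightest (-0.15, 0.348).

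The posterior Hox level went against that of Slc9a3 from pup to pup when each Hox gene was weighted alike. The mean log2 level of the 6 genes ran from 10.64 to 11.28 (median 11.02) in CSD and from 10.44 to 11.48 (median 11.20) in VD pups. By that measure VD pup 4, the VD pup highest in Slc9a3, was the lowest of all 16. Across the 16 pups Pearson r was -0.77 (Spearman rho -0.74, permutation p = 0.00053 and 0.00145, adjusted p = 0.00495 and 0.0113), with -0.71 within CSD and -0.87 within VD pups, and -0.71 without the 2 pups farthest from the median Hox level. With the summed level, carried by Hoxb13, r was -0.56 (rho -0.46), with -0.28 within CSD and -0.40 within VD pups. The sums were 16.79 ± 0.11 (SD, n = 8) for CSD pups and 16.92 ± 0.14 (SD, n = 8) for VD pups, and VD pup 4, at 16.87, was not the lowest by this measure.

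This was 1 of 28 relations, of Slc9a3 and Slc26a3 with the mean log2 level of the 14 marker lists, computed after the values were seen. These 2 genes had the largest differences between the delivery modes among the members. The permutation mixed pups of both modes and of all litters. A difference between the modes in both gene and marker level can therefore add to r and its p, and r within each mode was not tested. By Pearson r 5 of them passed and by Spearman rho 4 (adjusted p under 0.05), and each of the 5 was nearer 0 with summed levels or turned its sign. Slc9a3 and the mature colonocyte level had r = 0.81 (rho 0.82, permutation p = 0.00021 for both, adjusted p = 0.00294 and 0.00588), 0.62 within CSD and 0.82 within VD pups, and 0.75 without the 2 farthest pups. Without Tmigd1, the gene most like Slc9a3, r was 0.44, and with the summed level, carried by Lypd8, it was -0.14, and neither of these was tested. With the goblet cell level Slc9a3 had r = 0.69 (rho 0.74, permutation p = 0.00293 and 0.00162, adjusted p = 0.0164 and 0.0113), 0.26 within CSD and 0.61 within VD pups, 0.76 without the 2 farthest, and 0.35 with the summed level. Slc26a3 and the goblet cell level had r = 0.81 (rho 0.79, permutation p = 0.00015 and 0.00047, adjusted p = 0.00294 and 0.00658), 0.69 within CSD and 0.70 within VD pups, 0.76 without the 2 farthest, and 0.40 with the summed level. Slc26a3 and the immune level had r = -0.70 (rho -0.59, permutation p = 0.00258 and 0.018, adjusted p = 0.0164 and 0.0840), -0.49 within CSD and -0.50 within VD pups, -0.51 without the 2 farthest, and -0.63 with the summed level. The part of gut position or of these cell types in the delivery differences of Slc9a3 and Slc26a3 was not tested.

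**Figure D5:**
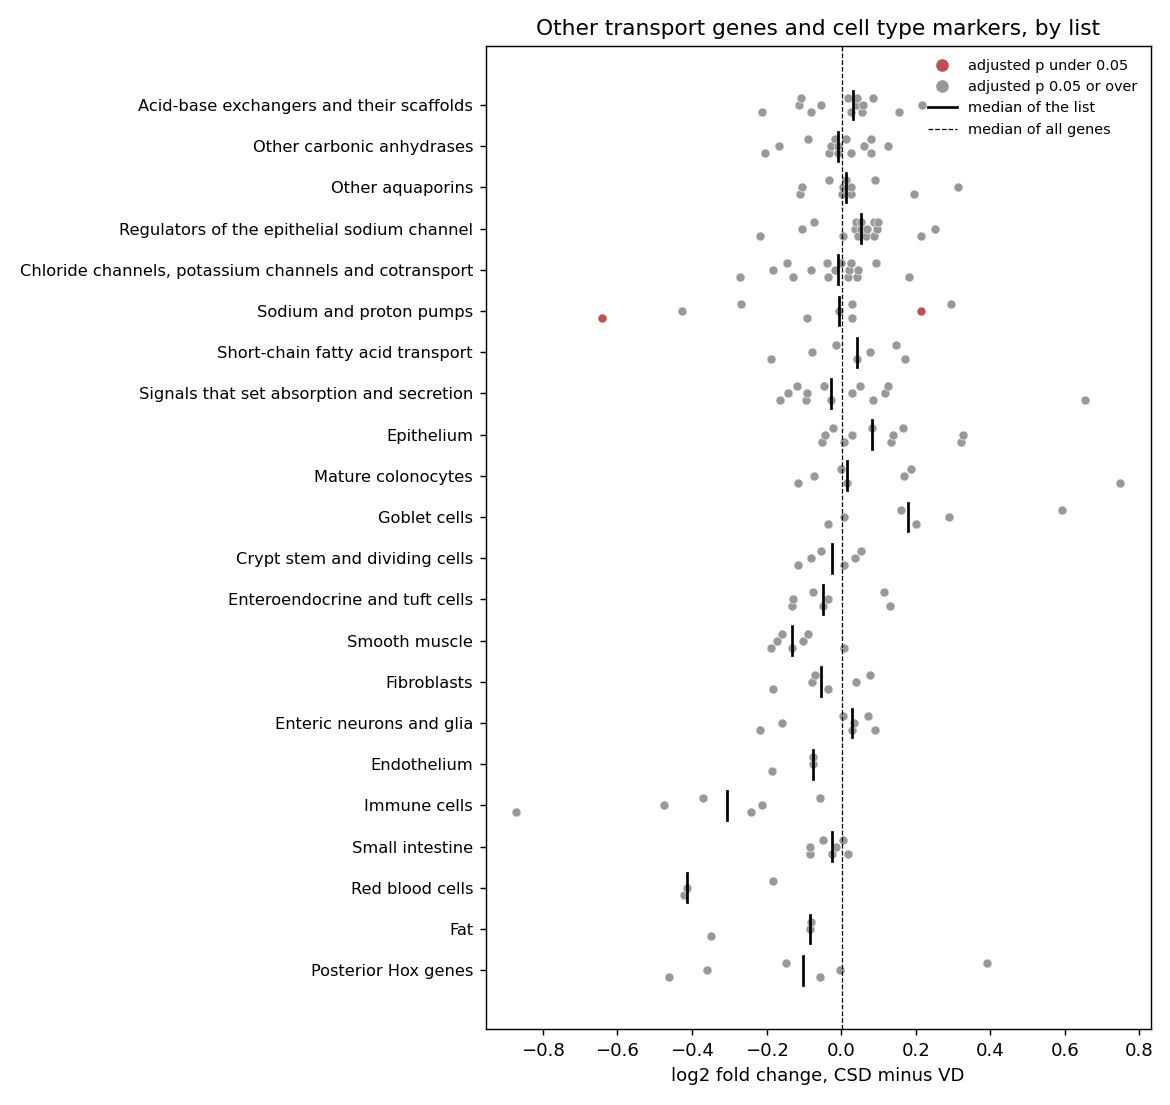
Log2 fold change (x axis, CSD minus VD) of each gene in the 8 lists of other transport genes and the 14 lists of cell type markers (y axis), with black bars for list medians and a dashed line for the median of all genes. Fxyd5 (-0.64) and Fxyd3 (0.21) are the coloured points that passed after adjustment. Every immune, red cell, endothelial and fat marker lies below 0, as do 52 of all 85 markers.

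The RefSeq promoter table (GRCm38.p6, 250 bases before to 50 after the start site) held 7 of the 10 genes, all except Car1, Scnn1a and Slc12a2. The search was for 4 motifs, on both strands. TTTATG and TTTATTG, letters recognised by the intestinal CDX factors, were present in 11.9% and 4.6% of the 32851 promoters of full length. CAAAGTNCA, for the nuclear receptor HNF4, was present in 1.41%, and AGAACA, an element of steroid receptors, in 19%. Among the 7 members, Scnn1g had 1 match to TTTATG, starting 7 bases before the start site, Aqp8 had 1 match to TTTATTG, starting 6 bases before it, and Slc26a3 had 1 match to AGAACA, starting at base 42 after it. In the windows of Slc9a3, Car4, Scnn1b and Cftr these letters were not found.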

How the data were processed

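Colon RNA of 16 pups was measured on 1-colour arrays. The authors deposited scanner output with a mean intensity, a local background and quality marks for each spot (Feature Extraction 12.0.3.2), and a matrix of 27036 genes in log2 units that the authors corrected, quantile normalized, filtered and averaged by gene with limma 3.38 (the correction is not named), used here as an alternative (r = 0.977 with the values computed here on each array). The array design is given as 74809 in the file headers. Groups, sex, mother and pup numbers came from the labels, and slides from the scanner output.

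Mean intensities were corrected with normexp (offset 50) in limma 3.58.1 (R 4.3.3) and taken to log2. Control spots and outlier spots were left out, and arrays were quantile normalized. Probes above the 5% quantile of their array on at least 4 arrays were kept (56366 of 56605), and averaged by gene name. The model took delivery mode and sex as fixed terms, with the biological mother handled as random (duplicateCorrelation, consensus correlation 0.0152), and p-values were adjusted by Benjamini-Hochberg. The fit was tested on simulated data in which litter mates were more alike than the consensus correlation fitted here. It recovered the direction of the changed genes but made more false calls than the adjusted p limit allows. The changes set in the simulation were larger than any member's difference in this model. That test therefore cannot tell whether differences of the members' size would be called. Permutation tests of group means used all 12870 assignments of pups, and those of correlations 100000 resamples, neither with regard to litter.

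A fitted difference was written as log2 fold change, CSD minus VD. Summed marker levels are log2 of the sum of linear intensities, and mean marker levels are means of log2 values. The members and lists were chosen with earlier results of these data known. All members are named, and from each other list the genes that passed or else the 2 with the smallest p, save some genes that are not reported here. Pups were separate animals, but litters are few, and the number of arrays and litters limits the precision. Alternatives were the normexp offset, the scanner's processed intensity, the dim probe filter, the brightest probe, the deposited matrix, model terms, slides, an adjusted p under 0.1, litter means, males only, a block by pup number, and leaving out each pup or litter. The microbiota and other ages were not analysed here. Plots were drawn with matplotlib 3.10.9.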

Additional observations from a re-analysis of the deposited data

Results flagged for a closer look

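Among the 20 sets of 8 values (10 genes in each delivery mode), 2 held a pup whose gap to its nearest neighbour took up more of the group's range than Dixon's 95% limit allows. Chance alone flags about 1 in 20 such sets. In CSD pups this was Scnn1b in pup 3, a female of mother 3, at a log2 intensity of 6.87 against 6.58 in the next pup. In VD pups it was Cftr in pup 6, a male of mother 6, at 8.09 against 8.43 in the next pup. Without CSD pup 3 the log2 fold change of Scnn1b was -0.07 (limma adjusted p = 0.621), and without VD pup 6 that of Cftr was 0.08 (limma adjusted p = 0.657). The summed levels of the 14 marker lists gave 0 such pups in 28 sets.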

How the results depend on the processing

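Slc26a3, Slc9a3, Car1, Aqp8, Scnn1g and Cftr kept a positive and Scnn1a a negative log2 fold change under all 38 alternatives. Car4 turned to -0.13 and Slc12a2 to 0.00087 within slide 2, and Scnn1b, at -0.04, ranged from -0.11 to 0.0433 with pups or litters left out (0.0433 without the litter of mother 4) and was -0.23 and -0.22 with the scanner's processed intensity (quantile or 75th percentile). Slc9a3 ranged from 0.17 (slide 2) to 1.61 (slide 1) and Slc26a3 from 0.36 to 0.55. The number of members called was 0 under the alternatives, except when pups or litters were left out, where it was 0 to 2 (1 without VD pup 8, 2 without the litter of mother 6), and it was 0 throughout for sex, its interaction with delivery, and the litters.

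The 460 genes called became 243 and 102 with normexp offsets of 16 and 0, 177 and 164 with the scanner's processed intensity (quantile or 75th percentile), 170 in the deposited matrix, 992 without sex in the model, 12 and 0 within slides 1 and 2, 1126 at an adjusted p under 0.1, 0 with litter means, 0 in males only, and 138 (without the litter of mother 4) to 2265 (without that of mother 6) when pups or litters were left out (145 without VD pup 4). The cause was not tested, but slides, males and litter means hold fewer samples. The 2 other transport genes called became 1 with either offset, either processed intensity and the matrix, 0 within each slide, with litter means and in males only, and 0 to 8 with pups or litters left out. Marker genes called, 0, became 1 without the mother, 4 without sex, 4 at an adjusted p under 0.1, and 0 to 6 with pups or litters left out. Pairs of members called, 0, became 0 to 2 then, an alternative chosen after seeing the data, as were those for the 5 relations of Slc9a3 and Slc26a3 with marker levels. Over 26 settings of processing and left-out pups or litters r kept its sign, from -0.82 to -0.59 for Slc9a3 with the Hox level, 0.78 to 0.91 with mature colonocytes and 0.46 to 0.77 with goblet cells, and for Slc26a3 from 0.68 to 0.83 with goblet cells and -0.76 to -0.62 with the immune level. The values nearest 0 of Slc9a3 with the Hox and goblet cell levels were those without the litter of mother 5. With summed levels r was -0.14 for Slc9a3 with mature colonocytes, the 1 relation that turned, and -0.56 with the Hox level.

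With the pup number as a replicate block, 0 genes, 0 members and 0 other transport genes passed, with log2 fold changes of 0.92 for Slc9a3 and 0.37 for Slc26a3. Whether the numbers pair pups in some way cannot be told from these values, since no mother had pups of both delivery modes. Pups that share a number across delivery modes had deviations correlated by 0.12, 0.22, 0.02, -0.05 and 0.06. The median for pups with different numbers was -0.008. Fxyd3 lost its call in 21 of 38 alternatives and Fxyd5 in 7, neither changing direction. Probes near background (Slc9a3 A_52_P82701, Cftr A_55_P2117511, Scnn1b) limit what those signals can show.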
